A study of Drosophila melanogaster with 21 samples.

Results

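Of 17737 genes in the table, 126 were raised by depletion of dMi-2 while no library depleted of Ush went far above the highest control library. These genes were selected on the measured values themselves: the lowest of the 3 dsMi-2 libraries had to reach a normalised count of 20 and be at least 2 times the highest dsEGFP library, and the highest dsUsh library had to stay below 1.5 times the highest dsEGFP library. Symbols starting with Cyp, Gst, CR or mt: were dropped. RNA was sequenced from Drosophila melanogaster S2 cells, a cultured line of hemocyte (insect blood cell) character, which in the study's RNAi experiments stably expressed Cas9. Cells were harvested 4 days after transfection with double-stranded RNA (dsRNA). In the first experiment 3 libraries each received dsEGFP (a non-targeting control), dsUsh (against all isoforms of U-shaped) or dsMi-2 (against the nucleosome remodeller dMi-2). In a second experiment 4 libraries received dsUsh-B, against the single isoform Ush-B, and 4 received dsEGFP. The methods describe 3 independent transfections of this 1 cell line, and for the 4 libraries a group of the second experiment their origin is not given in the sources used here. Values are reads per gene divided by a size factor of each library, called normalised counts here, and the tables of both experiments were normalised separately.

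dMi-2, encoded by Mi-2, is an ATP-dependent chromatin remodeller. In flies it is the motor subunit of NuRD, which joins remodelling with histone deacetylation, and of dMec, which it forms with MEP-1, and it is best known for keeping genes of other tissues and developmental stages silent. Ush is a multi-zinc-finger cofactor of GATA transcription factors and is known for restraining the differentiation of hemocytes.

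The targeted transcript fell. Mi-2 was at 5247, 5417 and 4273 normalised counts in the dsEGFP libraries and at 1567, 1125 and 1152 in the dsMi-2 libraries, a log2 fold change of -1.97 (SE 0.15, limma adjusted p = 6.93e-05). The transcript of ush was at 5276, 4789 and 3929 in dsEGFP and at 4089, 3810 and 3341 in dsUsh, groups that overlapped (log2 fold change -0.31, limma adjusted p = 0.0978, and 0.00702 with replicate number as a block). On Western blots the paper reports loss of the Ush signals after dsUsh, and efficient depletion of the slower-migrating Ush isoform after dsUsh-B. Protein is not measured in the libraries counted here. In the second experiment ush differed by -0.11 on the log2 scale (SE 0.18, limma adjusted p = 0.927), so the whole-gene count did not separate dsUsh-B from its control, and the direction of dsUsh-B values was taken from the column headers. The deposited comparison of these same libraries carries the opposite sign, without naming which group was subtracted from which, whereas those of the first experiment carry the sign of the headers. Every "lower" and "higher" given for dsUsh-B follows the headers and would be exchanged if these were switched. Read by the headers, comm2 was higher in dsUsh-B (log2 fold change 2.88) as it was in dsUsh (5.54). The 90 tested genes raised by both depletions of the first experiment had a median of 0.46 in dsUsh-B, with 27 lower. Whether depletion of Ush-B must move genes as depletion of all isoforms does was not tested. Libraries held 21366051 to 26101822 reads on genes in the first experiment and 46181614 to 59387417 in the second. In a fit across all 9132 tested genes of the first experiment, dMi-2 depletion raised 396 (4.34%) and lowered 178 (1.95%), and Ush depletion raised 1125 (12.3%) and lowered 442 (4.84%), at a limma adjusted p under 0.01.

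Of the 13669 genes with a read in the first experiment, 309 (2.26%) met the dsMi-2 conditions. The dsUsh ceiling held for 136 of these, and 10 were then dropped by symbol. The remaining 126 genes were therefore separated from the control by construction, and their dsMi-2 values are given as a description, with no test. The mean dsMi-2 level was a median of 7.27 times the mean dsEGFP level, from 2.40 times for yellow-f2 to 104.4 times for gnu. The lowest dsMi-2 library was at least 3 times the highest control in 80 genes, at least 5 times in 44 and at least 10 times in 20. In 71 genes every dsMi-2 library was over 100 normalised counts, and in 21 every one was over 1000. The control level was low in many: in 48 genes no dsEGFP library reached 20 normalised counts, and in 27 none held more than 10 reads. Just inside the floor of 20 were knk, CG13308 and sand at 20.9 each, and just outside it were hid at 19.5, ppk31 at 19.4 and CG4461 at 18.4. At the ratio of 2, gukh (2.10), Spn42De (2.10) and Aplip1 (2.12) were inside, while Strn-Mlck (2.00 after rounding), hdm (1.98) and aub (1.98) were outside. At the dsUsh ceiling, nahoda (1.49), CG32037 (1.47) and nuf (1.47) were inside, and Fas1 (1.51), pan (1.56) and CG14984 (1.56) were outside.

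By known or annotated function, 81 of the 126 genes fell into 8 classes, assigned with their values known, and 45 were left unclassed. A CG number was the only symbol in the file for 47. The classes were transporters and metabolism (16 genes), extracellular matrix and cuticle (11), cell surface and adhesion (11), receptors, channels and signalling (11), proteases and protease inhibitors (10), actin and membrane shape (8), transcription and chromatin (8) and germline, meiosis and egg activation (6). The median ratio of mean dsMi-2 to mean dsEGFP was highest among the germline genes (14.6) and lowest among the receptors (5.06), and the ranges of all classes overlapped. The germline median rests on 6 genes, of which gnu, dhd and tomb had only 2, 4 and 15 control reads over all dsEGFP libraries. On the chromosomes 4 pairs were next to each other among protein-coding genes, namely vkg with Col4a1, gnu with CG17839, CG13248 with zye, and ATPsynepsilonL with knk. The spans of 56 of the 126 overlapped another gene. Since strand use in counting is not given in the sources used here, reads of such genes cannot be assigned to 1 gene with certainty. No share over all genes was taken for neighbours or overlaps, so whether these counts are unusual cannot be said.

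**Figure D1:**
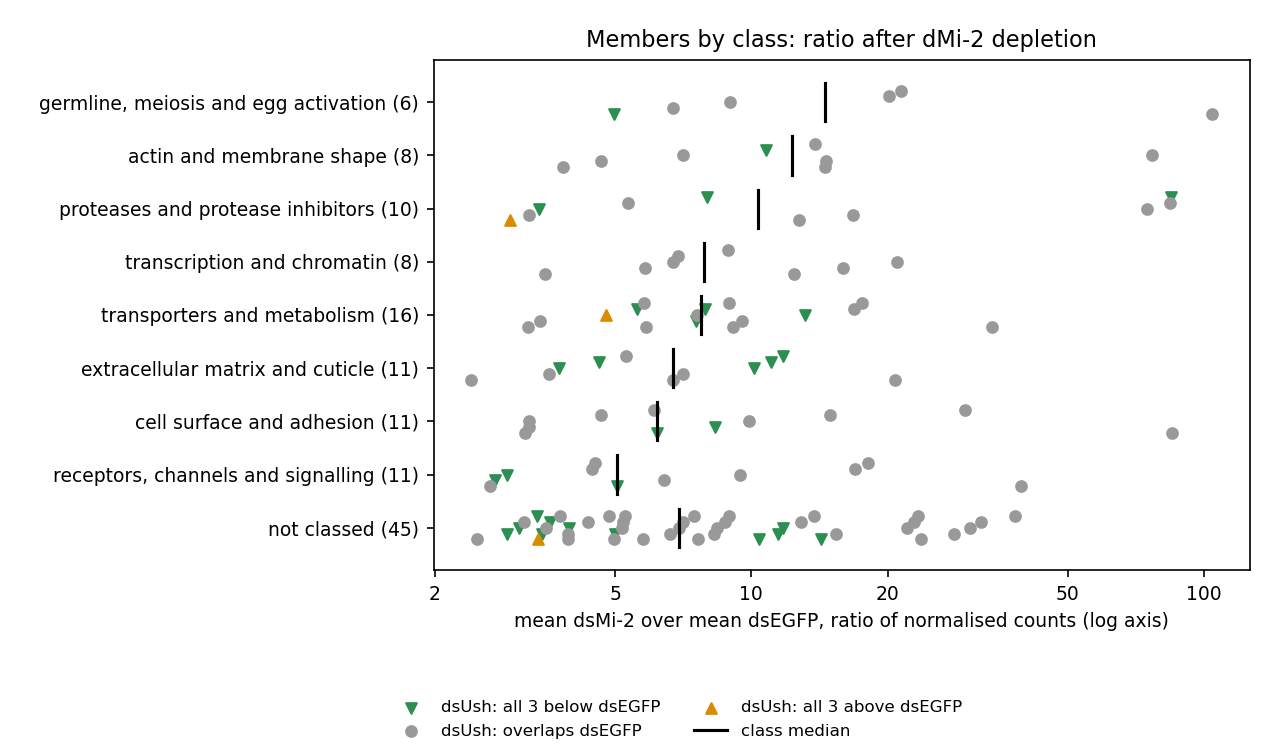
Ratio of the mean dsMi-2 to the mean dsEGFP normalised count (log axis) for each of the 126 genes, grouped by class with the number of genes in brackets; black bars are class medians, and symbols show whether all 3 dsUsh libraries lay below, across or above the 3 dsEGFP libraries. Class medians ran from 5.06 to 14.6 and every class held a gene raised under 5 times.

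Fili and gnu, which had the largest ratios of mean dsMi-2 to mean dsEGFP, were nearly silent without dMi-2 depletion. Fili, a leucine-rich repeat cell-surface protein, was at 2.71, 3.13 and 0 normalised counts in dsEGFP, at 2.60, 1.14 and 0 in dsUsh, and at 136, 203 and 157 in dsMi-2. gnu, the activator of the PNG kinase that starts translation in the activated egg, was at 0.905, 0 and 1.07 in dsEGFP and at 44.6, 70.6 and 90.7 in dsMi-2. Over the 3 libraries gnu had 2 reads in the control and 210 after dMi-2 depletion, a ratio of 103 with an exact 95% interval of 28.1 to 856, and Fili had 6 and 505 reads, a ratio of 82.5 (37.7 to 226). These intervals cover counting error only. In dsUsh both stayed at the control level.

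Of the 12 genes with the largest ratio of lowest dsMi-2 to highest dsEGFP library, 3 encode proteases or a protease inhibitor. The serine protease CG4927 went from 2.71, 6.25 and 6.40 to 270, 524 and 355, the serpin Spn88Eb from 5.43, 3.13 and 3.20 to 167, 600 and 227, and the papain-like cysteine protease CG6357 from 34.4, 15.6 and 9.60 to 1996, 1971 and 1047. CG5080, of unassigned function, was at 9647, 7747 and 7499 from 409, 200 and 165. Myo10A, an unconventional myosin, went from 5.43, 2.08 and 1.07 to 288, 122 and 248, lbm, a tetraspanin, from 7.24, 16.7 and 17.1 to 369, 473 and 376, and Cpr51A, a cuticle protein, from 5.43, 8.33 and 8.53 to 145, 168 and 151. Ugt58Fa, a UDP-glycosyltransferase now named Ugt317A1, was at 104, 70.8 and 17.1 in dsEGFP and at 2767, 2099 and 1651 in dsMi-2. CG2003 (26.2, 17.7 and 13.9 against 457, 495 and 397) and the octopamine receptor gene Octbeta3R (4.52, 1.04 and 1.07 against 67.9, 91.5 and 102) completed the 12. In all 12 the lowest dsMi-2 library was at least 15.0 times the highest control, and for 11 of them the dsUsh libraries overlapped those of dsEGFP, the exception being Spn88Eb at 1.74, 0 and 0.

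**Figure D2:**
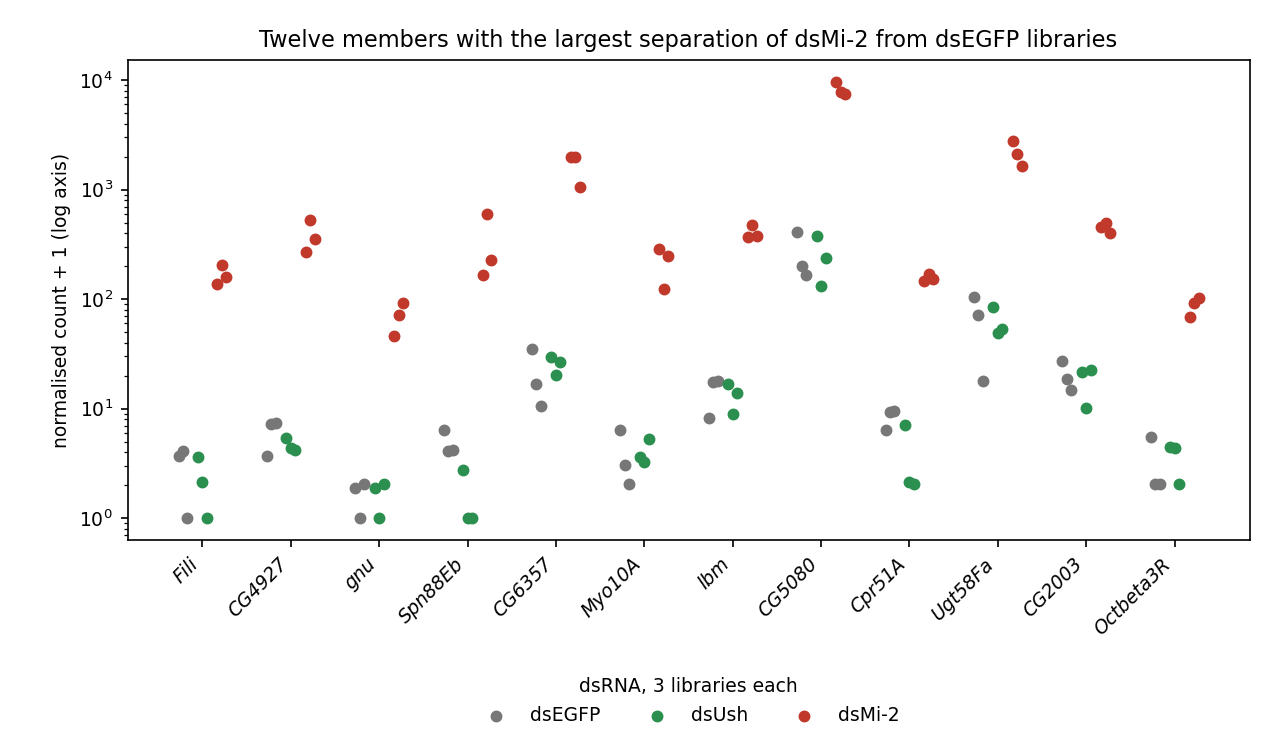
Normalised count plus 1 (log axis) in each library of the first experiment for the 12 genes with the largest ratio of lowest dsMi-2 to highest dsEGFP library, 3 points per group. The dsMi-2 points stand clear above both other groups for every gene, which the choice of genes fixed, and the dsUsh points overlap the dsEGFP points or lie below them.

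The 11 extracellular matrix genes were all raised in dsMi-2 by the rule. In 5 of them every dsUsh library was also below every control library, as in 19.3% of all 9132 tested genes, to which no dsUsh ceiling was applied. SPARC, a collagen-binding glycoprotein of the basement membrane, was at 1931, 4009 and 2844 in dsEGFP and at 28240, 35777 and 39000 in dsMi-2, while in dsUsh it stood at 332, 205 and 214. It was thus 11.7 times the control mean after dMi-2 depletion, and the control mean was 11.7 times that of dsUsh. The collagen IV chains, which SPARC binds, moved the same way. Col4a1 was at 597, 450 and 314 in dsEGFP, 142, 68.2 and 74.7 in dsUsh and 1555, 2905 and 1808 in dsMi-2, and the neighbouring vkg at 385, 340 and 300, then 128, 86.4 and 81.1, then 952, 1766 and 1135. In all 3 genes the 3 groups did not overlap. For other basement membrane genes no such change was called: the laminin genes LanA, LanB1 and LanB2 changed by -0.02 (SE 0.33), -0.18 (SE 0.29) and 0.19 (SE 0.38) on the log2 scale after dMi-2 depletion (limma adjusted p = 0.986, 0.766 and 0.816), and fell by 1.94, 2.21 and 3.54 after Ush depletion (adjusted p = 0.00181, 4.33e-04 and 1.28e-04). The perlecan gene trol was 3.28 times the control mean after dMi-2 depletion (log2 fold change 1.79, SE 0.50, adjusted p = 0.0416, and 0.00640 with the replicate block), so it missed the threshold of 0.01 in the fit without the block.

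The other 8 genes of this class were a mixed group of matrix, cuticle and pigment genes. zye, a zona pellucida domain protein, went from 147, 99.0 and 83.2 to 1364, 1361 and 911, with 56.4, 14.8 and 48.0 in dsUsh. Duox, a dual oxidase, went from 45.2, 43.8 and 66.1 to 478, 365 and 727, with dsUsh below all controls at 34.7, 29.5 and 20.3. Kal1, the fly homolog of anosmin, was variable in the control (1305, 492 and 292) and tight after dMi-2 depletion (4319, 4884 and 4801). knk, which organises chitin, loh, a secreted ADAMTS-like protein, and the Yellow family genes yellow-b and yellow-f2 were raised 2.40 to 7.07 times. yellow-f2 was the most even of them, at 65.1, 65.6 and 62.9 in dsEGFP and 155, 155 and 154 in dsMi-2.

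Of the 10 protease and inhibitor genes, 3 encode serpins, which block serine proteases by acting as a suicide substrate. Spn28Dc was at 203, 170 and 181 in dsEGFP, 57.3, 55.7 and 41.6 in dsUsh and 576, 696 and 611 in dsMi-2, 3 groups without overlap. Spn42De was near the ratio threshold and was 1 of 3 genes whose dsUsh libraries all lay above the control, at 50.4, 46.6 and 50.2 against 36.2, 25.0 and 41.6. Kaz1-ORFB, a Kazal-type inhibitor, went from 107, 75.0 and 73.6 to 1810, 1184 and 1281. The serine protease CG8213 (filzig) was at 32.6, 15.6 and 14.9 in dsEGFP, 8.68, 3.41 and 4.27 in dsUsh and 154, 167 and 181 in dsMi-2. CG34409, a serine protease, CG5367, a papain-like cysteine protease, and Nep1, a neprilysin metalloprotease, were raised 3.23, 5.34 and 12.7 times.

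The 11 cell-surface genes included 3 tetraspanins (lbm, Tsp96F and Tsp66E), the gap junction innexin Inx3, the integrin alpha chain ItgaPS5 and the homophilic adhesion gene Fas3. Tsp96F was at 178, 85.4 and 193 in dsEGFP, 26.0, 6.82 and 25.6 in dsUsh and 946, 647 and 1227 in dsMi-2, again without overlap. Inx3 went from 34.4, 13.5 and 7.47 to 274, 221 and 333, and Fas3 from 32.6, 10.4 and 8.53 to 169, 200 and 141. Another innexin, Inx2, which is no member, was raised by both depletions (limma adjusted p = 0.00956 for dMi-2 and 6.80e-05 for Ush). boi, a Hedgehog co-receptor, was among the 8 genes with the highest counts in dsMi-2 (not corrected for gene length), at 2591, 2872 and 3890 from 299, 340 and 486, and its dsUsh libraries were lower than the control at 220, 206 and 259.

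Receptors came from several families. The Wnt receptors fz2 (347, 180 and 132 against 1107, 758 and 1120) and fz3 (29.0, 22.9 and 28.8 against 183, 87.5 and 87.7) were raised by dMi-2 depletion with dsUsh across the control. Of the other frizzled genes, fz rose after both depletions (35.3, 12.5 and 22.4 in dsEGFP, 169, 172 and 164 in dsUsh, 93.1, 84.5 and 120 in dsMi-2, adjusted p = 1.79e-04 for Ush and 0.00272 for dMi-2), and fz4 differed by -0.18 (SE 0.13, adjusted p = 0.435) after dMi-2 depletion. Receptors for neuroactive ligands were near silence in the control: besides Octbeta3R these were Proc-R, the proctolin receptor (4.52, 6.25 and 9.60 against 65.0, 41.8 and 85.8), and CCKLR-17D3, a cholecystokinin-like receptor (0, 7.29 and 1.07 against 36.9, 63.7 and 40.9). Pka-C3, a kinase of the protein kinase A type, went from 197, 32.3 and 35.2 to 2059, 1055 and 1670. Traf4, an adaptor of TNF receptor signalling, was at 763, 691 and 693 in dsEGFP, 304, 273 and 250 in dsUsh and 1625, 1909 and 2291 in dsMi-2.

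The 8 genes for actin and membrane shape included the formin DAAM, the I-BAR proteins IRSp53 and mim, the myosins Myo10A and d (dachs) and the apical constriction factor Shroom. DAAM was at 56.1, 50.01 and 33.1 in dsEGFP, 19.1, 13.6 and 19.2 in dsUsh and 460, 689 and 353 in dsMi-2. IRSp53 went from 39.8, 8.33 and 12.8 to 339, 185 and 368, and its highest control library was 4.78 times its lowest. nuf, a partner of Rab11, was at 359, 77.1 and 97.1 in dsEGFP and lay just under the dsUsh ceiling at 529, 224 and 359.

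A further 6 genes are known from the germline, meiosis or the activated egg. Besides gnu, the catalytic subunit gene png of the same kinase went from 101, 123 and 94.9 to 628, 780 and 731, whereas plu, the third subunit, had a normalised count of at most 2.60 in every library of the first experiment. dhd, the thioredoxin of the egg, was at 0, 4.17 and 0 in dsEGFP, 0 in all dsUsh libraries and 34.9, 27.8 and 26.3 in dsMi-2. CG4415, the germline form of the nascent polypeptide-associated complex alpha subunit, went from 166, 89.6 and 61.9 to 2015, 2598 and 1801. tomb, of the testis transcription programme, and sunn, of meiotic sister chromatid cohesion, were at 40.7, 58.7 and 38.0 and at 142, 103 and 181 in dsMi-2, against controls of 2.71, 8.33 and 4.27 and of 24.4, 28.1 and 33.1. Only sunn of these 6 had all dsUsh libraries below the control, at 3.47, 2.27 and 8.54.

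Several members have a relative of the same family that is no member. For 8 such members the counterpart was looked up once the members were known: Arpc3B and Arpc3A (Arp2/3 complex), CG4415 and Nacalpha, Mpcp1 and Mpcp2 (mitochondrial phosphate carriers), ATPsynepsilonL and sun (ATP synthase), Vha36-3 and Vha36-1 (vacuolar ATPase), eIF4E6 and eIF4E1 (cap-binding proteins), dhd and Trx-2 (thioredoxins), and boi and ihog (Hedgehog co-receptors). The 8 members were 4.78 to 21.4 times the control mean in dsMi-2, and the 8 counterparts 0.733 to 1.10 times. None of the counterparts passed an adjusted p of 0.01 by limma (1 had an unadjusted p under 0.05, edgeR called 0 and DESeq2 called 1), the nearest being ihog (log2 fold change -0.45, SE 0.10, adjusted p = 0.0158, and 0.00770 with the replicate block). Arpc3B, for example, went from 109, 86.5 and 62.9 to 1041, 1602 and 936 while Arpc3A changed by 0.14 on the log2 scale (SE 0.09, adjusted p = 0.376). The difference between a member and its counterpart was not tested. The pairs were picked and do not cover all families. Relatives outside them did rise after dMi-2 depletion, such as Inx2 beside Inx3 and fz beside fz2 and fz3, while fz4 was not called.

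**Figure D3:**
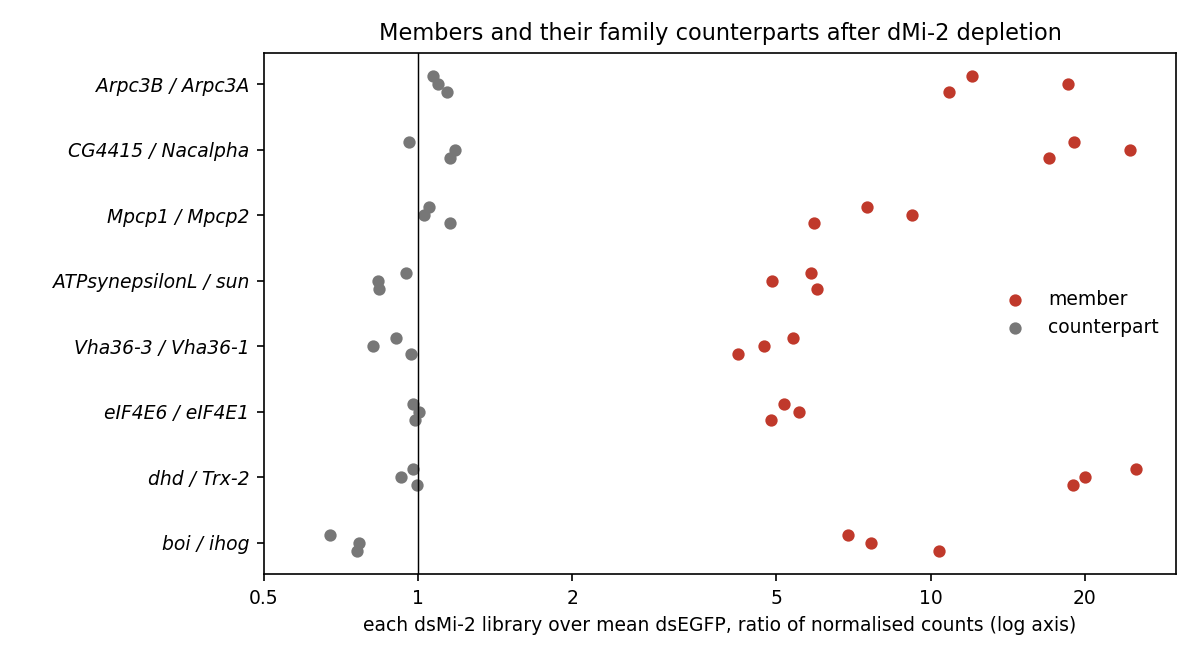
Each dsMi-2 library over the mean of the dsEGFP libraries (ratio of normalised counts, log axis) for 8 members (red) and a counterpart of the same family (grey), 3 points each. The mean ratios of members ran from 4.78 to 21.4 and those of counterparts from 0.733 to 1.10.

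The 8 transcription and chromatin genes were all at 20.3 normalised counts or lower in dsEGFP. The bHLH factor nau, the fly MyoD homolog, was at 9.05, 3.13 and 0 in dsEGFP and 36.9, 43.8 and 27.3 in dsMi-2. corto, a cofactor of Polycomb and trithorax proteins, went from 3.62, 12.5 and 13.9 to 78.6, 133 and 266, and the acetyltransferase gene CG1894 from 9.05, 1.04 and 0 to 78.6, 81.6 and 51.7. Sox102F, pdm3, HP6 and the SET and MYND domain genes SmydA-3 and Smyd4-2 made up the rest. The dsUsh libraries overlapped those of the control in all 8.

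The 16 transport and metabolism genes included 3 of the 8 with the highest counts in dsMi-2. QC, a glutaminyl cyclase that modifies the start of secreted peptides, was at 2905, 484 and 877 in dsEGFP and 13243, 11340 and 14298 in dsMi-2. ATP8B, a phospholipid flippase, went from 991, 199 and 516 to 12848, 4224 and 12954, and CG8468, of the monocarboxylate transporter family, from 1517, 1575 and 695 to 4433, 4682 and 3786. Glycogenin, the protein primer of glycogen, was at 75.1, 95.8 and 121 in dsEGFP, 12.2, 12.5 and 18.1 in dsUsh and 1251, 1242 and 1344 in dsMi-2. Its span overlaps that of CG44245, another member, which moved in the same directions (9.05, 12.5 and 20.3, then 2.60, 1.14 and 0, then 150, 93.5 and 190), and reads of these genes may not have been told apart. arg, arginase, behaved likewise at lower levels, with 48.0, 46.9 and 44.8 in dsEGFP, 18.2, 18.2 and 11.7 in dsUsh and 258, 404 and 441 in dsMi-2. shd, a cytochrome P450 gene kept because its symbol lacks the prefix that was dropped, encodes the enzyme that makes 20-hydroxyecdysone and went from 9.95, 3.13 and 5.33 to 110, 60.7 and 140. The sugar transporter sut1, the cationic amino acid transporter CG13248 and the phosphoserine aminotransferase CG11899 were raised 5.86, 3.21 and 5.81 times.

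Among the 45 unclassed genes the ratio of means had a median of 6.93, from 2.48 (CG5984) to 38.3 (CG17167). CG12477 was the last of the 8 genes with the highest counts in dsMi-2, at 2297, 3337 and 2358 from 1027, 605 and 402. scpr-C and scpr-A, 2 genes of a family of secreted proteins, were at 145, 97.5 and 96.5 and at 44.6, 44.8 and 26.3 in dsMi-2, from 11.8, 10.4 and 7.47 and from 10.9, 8.33 and 3.20 in dsEGFP, while scpr-B stayed at a normalised count of at most 1.14 in every library of the first experiment. Reads that match several genes of this family could be split between them.

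The rule set a ceiling but no floor for dsUsh, so the genes could lie anywhere under it, and because the ceiling was set from the highest control library, a mean could still be above the control mean. The mean dsUsh level was below the mean dsEGFP level in 73 genes and at least 1.5 times it in 13, up to 2.21 times for CCKLR-17D3, 2.08 for nuf, 2.04 for Kal1 and 2.01 for Fas3. In 30 of the 126 genes (23.8%) all 3 dsUsh libraries lay below all 3 dsEGFP libraries, and in 93 the groups overlapped. Among all 9132 tested genes the share below was 19.3%. The ceiling kept genes high in dsUsh out of the 126 but not out of the 9132, so these shares are not like for like. In 3 genes, CG2841, Vha36-3 and Spn42De, dsUsh lay above. The 30 genes included 5 of the 11 matrix genes (Col4a1, vkg, SPARC, zye and Duox) and 3 of the 10 proteases and inhibitors (Spn88Eb, Spn28Dc and CG8213). CG42327 had the highest counts of the unclassed genes of this kind, at 739, 669 and 513 in dsEGFP, 196, 150 and 111 in dsUsh and 2278, 2680 and 2624 in dsMi-2. CG31337 was at 0 in all 3 dsUsh libraries, from 11.8, 7.29 and 5.33 in dsEGFP. Both depletions were set against the same 3 control libraries, so these values are side by side and not independent.

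The second experiment, whose libraries the rule did not use, tested the same genes after depletion of Ush-B alone. Of the 126 genes, 120 passed a mean of 5 normalised counts, and Fili, gnu, Myo10A, CG6652, CG2444 and dhd did not. At a limma adjusted p under 0.05 none of the 120 was called, against 0 genes lower (0%) and 1 higher (0.0104%) of all 9648 tested, that one being comm2 (adjusted p = 0.0492), which is no member. At an unadjusted p under 0.05, 13 of the 120 were lower (10.8%, against 3.01% of all genes) and 2 were higher (1.67%, against 4.08%). The quasi-likelihood test of edgeR on the recovered reads also called none. DESeq2 on the same reads called 6 of the 101 members with an adjusted p, all lower (5.94%, against 0.493% of 8515 genes), and 0 higher (against 0.575%), and with 1 library left out it called between 3 (without dsUsh-B replicate 2) and 13 (without dsEGFP replicate 4), with 11 without dsUsh-B replicate 1. Were the column headers switched, these 6 genes would be higher and the shares of all genes would change sides with them. All dsUsh-B libraries lay below all 4 controls in 7 of the 120 (5.83%, against 1.79%) and above them in 1 (0.833%, against 2.23%).

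The genes lower after Ush-B depletion were led by collagen IV. Col4a1 was at 1111, 1365, 3104 and 1158 normalised counts in the control libraries and at 496, 296, 303 and 316 in dsUsh-B, a log2 fold change of -2.15 (SE 0.33) with an adjusted p of 0.301 by limma and of 2.37e-07 by DESeq2. vkg was at 835, 1156, 2487 and 907 against 495, 247, 234 and 251 (-2.06, SE 0.37, adjusted p = 0.301 by limma and 4.39e-05 by DESeq2). Replicate 3 was the highest control library for both genes, and without it the groups were still apart. Spn28Dc, at 404, 521, 303 and 426 against 189, 153, 245 and 163, differed by -1.14 (SE 0.21, adjusted p = 0.301 by limma and 2.95e-04 by DESeq2). These 3 genes were called by DESeq2 whichever of the 8 libraries was left out.

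The other 3 calls were less stable. ATP8B was at 2037, 1801, 5033 and 1141 against 701, 572, 547 and 1105 (-1.61, SE 0.42, adjusted p = 0.464 by limma and 0.00479 by DESeq2), and was called in 7 of the 8 fits with a library left out, the exception being that without dsUsh-B replicate 2. Traf4, at 1470, 1653, 2885 and 1528 against 1148, 847, 918 and 1076 (-0.87, SE 0.21, adjusted p = 0.453 and 0.0153), was called in 5 of 8, and lost without dsUsh-B replicate 2, 3 or 4. Tsp96F, at 802, 551, 788 and 654 against 505, 434, 461 and 414 (-0.61, SE 0.14, adjusted p = 0.429 and 0.0116), was called in 4 of 8, and lost without control replicate 1 or 3 or dsUsh-B replicate 2 or 4. In all 6 genes every dsUsh-B library was below every control, as it was in CG4415 (298, 305, 306 and 340 against 270, 251, 274 and 258, limma adjusted p = 0.720).

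**Figure D4:**
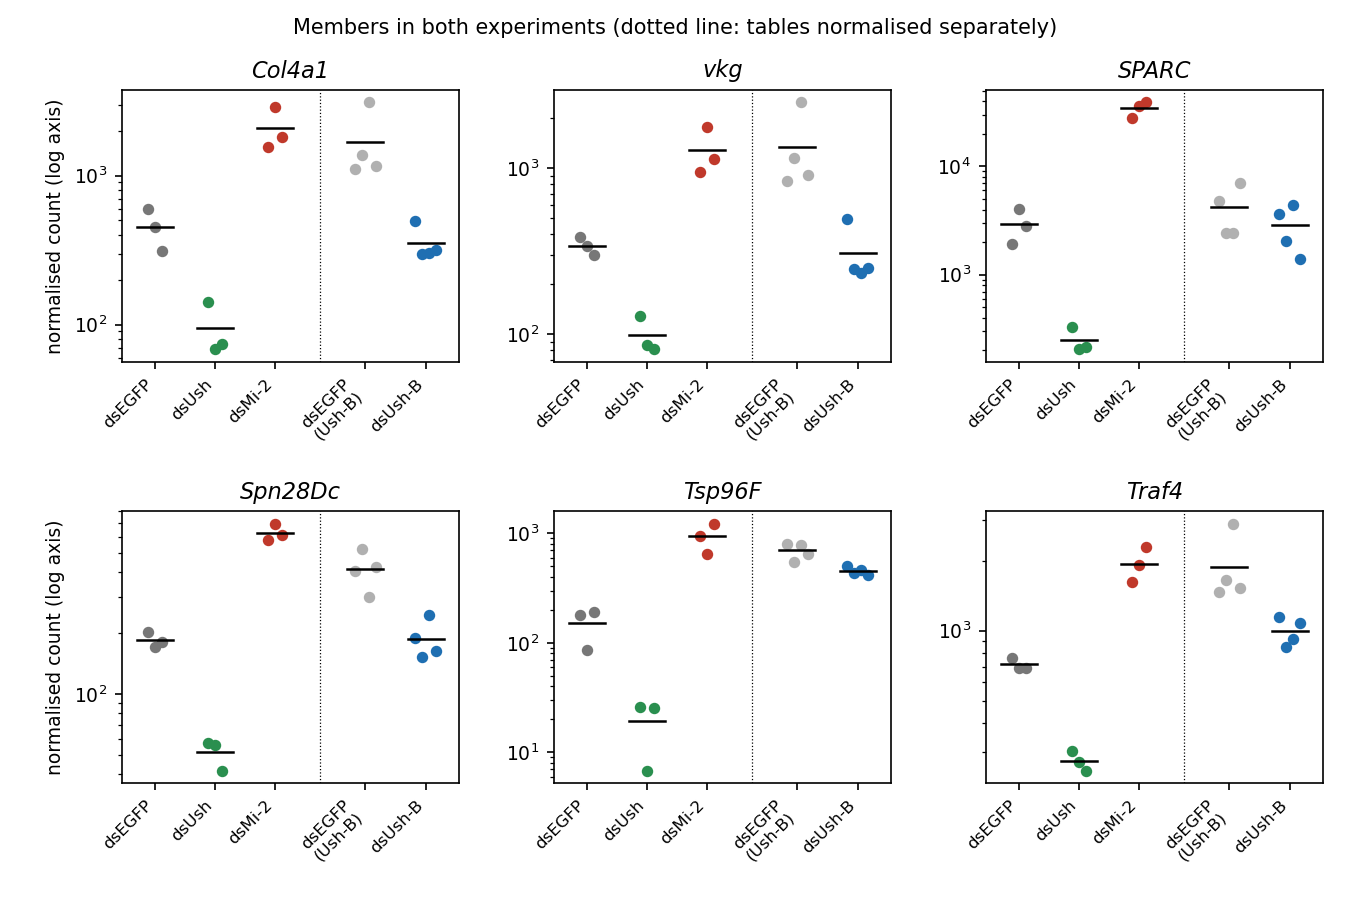
Normalised counts (log axis) of 6 members in every library of both experiments, 3 or 4 points per group with a bar at the group mean; the dotted line divides tables that were normalised separately, so levels are comparable only within a side. Col4a1, vkg, Spn28Dc, Tsp96F and Traf4 were lower than their own control in both dsUsh and dsUsh-B, while for SPARC the dsUsh-B and control points overlap.

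Of the 6 genes called by DESeq2, 5 were among the 30 whose dsUsh libraries lay below their control, the exception being ATP8B. Over those 30 the median log2 fold change after Ush-B depletion was -0.35, with 24 lower, and it was -0.28 between libraries of replicates 1 and 2 and -0.53 between those of 3 and 4. Over the other 90 it was -0.17 with 56 lower, and over all 9648 genes it was close to 0 with 50.1% lower. Among the 1729 genes that are no members but had dsUsh below dsEGFP the median was -0.05, with 64.4% lower. For all 120 members together the median was -0.18 with 80 lower, and it moved to -0.04 without control replicate 1 and to -0.10 without dsUsh-B replicate 3. That control library stood 0.31 above the control mean on the log2 scale over the members, and the others 0.08 to 0.11 below it. By contrast, the 91 genes raised at least 2 times by both depletions, of which 90 were tested, had a median of 0.46 with 27 lower, and DESeq2 called 5 of them, all higher.

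**Figure D5:**
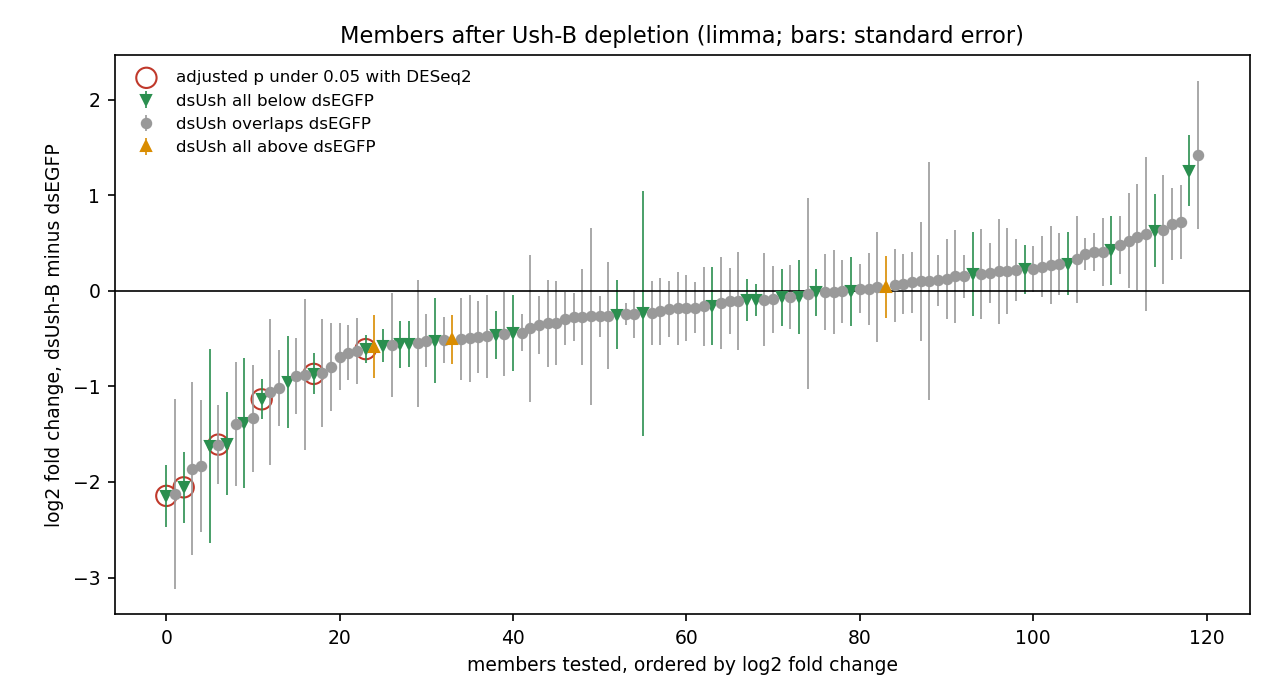
Log2 fold change of 120 members after Ush-B depletion (limma, dsUsh-B minus dsEGFP, vertical axis), ordered from lowest to highest, with standard errors as bars. Rings mark the 6 genes with an adjusted p under 0.05 by DESeq2, 5 of which carry the symbol for genes whose dsUsh libraries all lay below dsEGFP.

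Strong divergence between dsMi-2 and dsUsh did not go with a call in dsUsh-B for every gene. SPARC was at 4779, 2426, 2423 and 7080 in the control and 3653, 2064, 4423 and 1405 in dsUsh-B (-0.52, SE 0.44, limma adjusted p = 0.841), with both groups spread widely and overlapping. Glycogenin was at 176, 125, 56.0 and 152 against 132, 249, 74.9 and 125 (0.18, SE 0.44, adjusted p = 0.954). zye differed by -1.60 (SE 0.54, adjusted p = 0.603 by limma and 0.0730 by DESeq2), Pka-C3 by -1.83 (SE 0.69, 0.641 and 0.0902) and QC by -1.02 (SE 0.40, 0.661 and 0.164), each with 1 or 2 dsUsh-B libraries inside the control range. Their means were thus lower, as in the called genes, without passing the threshold. Only zye of these had all dsUsh libraries below the control, and those of Pka-C3 and QC overlapped it. Of the 30 genes with dsUsh below the control, 6 had a positive limma log2 fold change in dsUsh-B, and 1 of these, CG4269, was called at an unadjusted p under 0.05. Below the control in dsUsh at 5.21, 6.82 and 4.27 against 10.9, 13.5 and 12.8, CG4269 was above all controls in dsUsh-B, at 53.9, 39.2, 34.5 and 20.7 against 19.3, 13.9, 8.40 and 17.1 (1.26, SE 0.37, limma adjusted p = 0.549). The genes with the largest dsMi-2 ratios that could be tested overlapped their control, such as CG6357 (84.5, 30.9, 53.2 and 19.8 against 52.8, 51.0, 22.6 and 69.6). sunn split by replicate and not by group, at 78.4, 63.7, 951 and 1009 in the control and 57.0, 58.8, 834 and 884 in dsUsh-B.

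Lists of functionally related genes were counted after dMi-2 depletion with the members left out, because these were chosen on this contrast. Over all genes, 4.34% were higher and 1.95% lower at a limma adjusted p of 0.01. These shares still include the members, all raised by the rule, so they are only a rough measure for lists without members. Since the replicate numbers pair these libraries, counts with the replicate block, which called 1187 genes in place of 574, stand beside the others. The block's calls over all genes were not split by direction, so its list counts have no share to be read against. None of 19 tested ecdysone response genes passed (median -0.05 on the log2 scale), though 6 had an unadjusted p under 0.05, the replicate block called 2, DESeq2 called 1 and edgeR called 0. None of 14 neuronal genes passed either (median -0.14), with 3 at an unadjusted p under 0.05, 1 called with the block and 0 by edgeR or DESeq2. Of 29 secreted ligands 5 were higher (Pvf1, vn, grk, ths and Wnt6) and 1 was lower (Ilp6), 7 and 2 with the block, with a list median of 0.21 against -0.01 for all genes, and 3 to 6 were called with 1 library left out. Among 36 adhesion and guidance genes, Fas1 and Nrg were higher, a share near that of all genes with the members kept in. The block called 5 higher and 4 lower. Fas1 missed membership by its dsUsh value alone. Of 23 germline genes Hen1 was higher and vret lower (median 0.17), 3 and 2 with the block, and 1 to 3 were called with 1 library left out. Of 16 muscle genes Mlc2 was higher (median 0.09), also with the block, and 0 to 2 were called with 1 library left out. Of 14 heat shock genes stv was higher (median 0.54), also with the block. Of 8 serine proteases of proteolytic cascades, Sp7 and CG10232 were higher (3 with the block), the latter from 102, 59.4 and 46.9 to 5937, 6105 and 4975. Of the 9 NuRD and dMec subunits (median 0.01), Mi-2 was lower and simj, the p66 subunit, was higher (log2 fold change 1.12, SE 0.11, adjusted p = 2.46e-04), 1 in each direction with the block too.

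Hemocyte genes stood apart from each other. Of 17 that are no members, Glt was higher (log2 fold change 4.70, SE 0.89, adjusted p = 0.00733) and the phagocytosis receptor gene eater was lower (-3.77, SE 0.50, adjusted p = 0.00118), with 3 higher and 3 lower under the replicate block and 1 to 3 called with 1 library left out. The summed level of 10 hemocyte markers, which include Col4a1 and vkg, was 14186 to 18824 in dsEGFP, 30804 to 34093 in dsUsh and 22661 to 25674 in dsMi-2, so the sum was higher than the control in both depletions. A sum weighs genes with high counts most, and the markers did not move together. The markers eater and Hml had log2 fold changes of -3.77 and -1.58 after dMi-2 depletion, and of -4.80 and -1.67 after Ush depletion. For dMi-2, Hml did not pass 0.01 even with the replicate block (limma adjusted p = 0.0106). He and crq were at 3.25 and 0.515 for dMi-2, and at 3.345 and 1.337 for Ush. For dMi-2 neither passed 0.01 with the block (limma adjusted p = 0.0121 and 0.0139). Pxn and srp were at -0.17 and -0.05 after dMi-2 depletion, and at -0.68 and -0.49 after Ush depletion. Sr-CI was at 0.57 for dMi-2 and at -0.03 for Ush. Col4a1 and vkg were higher in one depletion and lower in the other. In the second experiment the sums overlapped, at 31875 to 41391 and 28481 to 38057. NimC1 held at most 10 reads in every library of the first experiment. Sums of 6 germline markers were 1722 to 2513 in dsEGFP and 2202 to 2723 in dsMi-2, with vas at 10 reads or fewer, and sums of 6 muscle markers were 715 to 765 and 893 to 1415, with Mlc1 and up at that level. The sums of 2 lamellocyte markers were 369 to 477 and 541 to 874. Sums of 6 neuronal markers overlapped, at 1388 to 2788 and 1278 to 2004, with Syt1 and VGlut at that level, as did those of 3 crystal cell markers, at 7.47 to 48.9 and 2.92 to 44.8. Their part in the members' values was not tested, and in bulk RNA a change in the number of cells of a kind and a change per cell cannot be told apart.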

How the data were processed

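The deposited tables hold normalised counts, a signal that the authors made by dividing reads per gene by the size factors of DESeq2. Per the submitters' processing notes, featureCounts (1.6.2) and DESeq2 (2.11.40.2) were used; reads were single, 50 bases long, from a stranded library. The genome build of the expression data and strand use in counting are not given in the sources used here. In both tables values were whole multiples of what 1 read is worth in each library (tolerance 0.05), and these reads were recovered for count tests. The 3 deposited comparison tables hold fold changes, standard errors and p-values of the authors and were not used. The one for Ush-B has its signs opposite to the column headers followed here, and which is right could not be settled from the files.

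The members and gene lists were chosen with earlier results of these data known. Main tests used limma (3.58.1, R 4.3.3) with trend on log2(normalised count + 1), over genes with a mean of at least 5, two-sided, with Benjamini-Hochberg adjustment over all genes tested, at 0.05 for Ush-B and 0.01 for the first experiment, where all 9 libraries were fitted together. Fold changes on this scale understate the change of low genes. edgeR (4.0.16), DESeq2 (1.42.0), other scalings, filters, pseudocounts, thresholds, a replicate block and each library left out were alternatives. The fits were tested on simulated data. In the first experiment libraries with the same number deviated together (correlations of 0.24 to 0.57 over 9 pairs), so the numbers were taken to pair the samples; the methods name 3 independent transfections, while the second experiment has 4 libraries a group, and p-values measure the spread between libraries.

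Full values were to be given for the 12 members with the largest ratio of lowest dsMi-2 to highest dsEGFP library, the 8 with the highest lowest dsMi-2 library, members past the threshold for Ush-B, and named members of known role; other genes were named after their values were seen. Names, neighbours and overlaps came from the RefSeq gene table of the Release 6 assembly, where 123 of the 126 matched. No sequences were used.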

Additional observations from a re-analysis of the deposited data

Results flagged for a closer look

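In the second experiment 7 values were flagged as standing apart within their group of 4 libraries, by the gap to the nearest library over the group's whole range. The scan did not cover all members. CG8468, for example, also stood apart in dsUsh-B, at 1928 in replicate 1 against 326, 413 and 452, and was not flagged. Chance gives such a value in about 1 in 20 groups, but the number of groups scanned is not given, so the 7 cannot be set against that share. Col4a1 was highest in control replicate 3, at 3104 normalised counts, and Traf4 was highest in the same library, at 2885, as was CG33307, at 1300. Col4a1 and vkg were highest among the dsUsh-B libraries in replicate 1, at 496 and 495, and so was CG4733, at 232. gukh was highest in control replicate 1, at 327. In Col4a1, vkg and Traf4 the groups did not overlap with these libraries in place.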

How the results depend on the processing

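The number of members was 80 with a ratio of 3 in place of 2, lay between 102 and 186 under the other scalings, floors, ratios and ceilings, and between 113 and 148 with 1 library left out. For Ush-B, limma's 1 call became 0 with a pseudocount of 0.5, a mean of at least 20, upper-quartile scaling, a batch term for replicates 1 and 2 against 3 and 4, the threshold 0.01 or edgeR, 91 with DESeq2 and 0 to 4 with 1 library left out. Among the members no alternative made a call other than DESeq2, with 6, and 3 to 13 with 1 library left out, a set of fits chosen after seeing the data. Their median fold change ran from -0.27 to -0.04 with 1 library left out, and that of the 30 genes with dsUsh below control from -0.42 to -0.27. With replicate number as a block, dMi-2 calls went from 574 to 1187, Ush calls from 1567 to 2601 and Ush-B calls to 0. In the second experiment same-numbered libraries correlated at 0.56 and 0.66 for replicates 1 and 2, but at -0.05 and 0.14 for 3 and 4. Control replicate 4 correlated with dsUsh-B replicate 3 at 0.76, and control replicate 3 with dsUsh-B replicate 4 at 0.52. The numbers were therefore not taken to pair these samples, and a fit with replicates 3 and 4 exchanged was not run. dMi-2 calls were 1089 with DESeq2 and 1275 at a threshold of 0.05, and Ush calls 2679 at 0.05; with 1 library left out they ran from 292 to 587 (322 without dsEGFP replicate 2, 296 and 292 without dsMi-2 replicate 2 or 3) and from 1008 (without dsUsh replicate 3) to 1395. The cause was not tested. Low control counts limit the ratios of 27 members, and Ush-B values rest on 4 libraries a group that spread widely.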
